A study of Mus musculus with 4 samples.

Results

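The carbonic anhydrases described here are the 10 genes Car1, Car2, Car3, Car4, Car8, Car9, Car11, Car12, Car13 and Car14, out of 16 carbonic anhydrase genes and 19938 genes in all that have a row of their own on the array. They were selected from the family by name with earlier results of these data known. A gene with several rows was to be represented by the row with the highest mean over the 4 arrays, but each of the 10 has 1 row, so that no measured value decided which row was read. RNA was hybridized to Affymetrix Mouse Gene 1.0 ST arrays from visceral mesothelium of the omentum (2 arrays) and from parietal mesothelium of the body wall (2 arrays), all taken from untreated adult Wt1-cre;Rosa26ReYFP mice on a c57bl/6 background. In these animals Cre recombinase is produced in Wt1-expressing cells and switches on a yellow fluorescent reporter in these cells and their descendants. The tissue was profiled as dissected, without sorting or culture, and the parietal sheet was teased away from skeletal muscle. By the fluorescent reporter, the isolated material was described as almost wholly mesothelial. Arrays of one tissue are labelled as biological replicates, but how many animals each stands for is not stated, and the p-values therefore reflect only the variation from array to array.

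Carbonic anhydrases are zinc enzymes that interconvert carbon dioxide and bicarbonate with release or uptake of a proton. Cytosolic members serve gas transport, acid secretion and muscle and fat metabolism, whereas membrane-bound members with an outward-facing catalytic domain set the pH at the cell surface together with bicarbonate and proton transporters. A further group, the carbonic anhydrase-related proteins, keeps the fold but has lost the catalytic activity. The mesothelium is the flat epithelium that lines the peritoneal cavity and across which fluid and ions pass.

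Signals are RMA values on the log2 scale, where 1 unit is a 2-fold change, and are compared only within a gene, since probes of different genes differ in brightness. The tissues were compared with limma over all 19938 genes. A gene counted as called when its p, adjusted by Benjamini-Hochberg over all genes, was under 0.05 and its fold was at least 1.5. Differences are visceral minus parietal. By this rule 3 of the 10 carbonic anhydrases were called lower in visceral mesothelium, namely Car3, Car9 and Car14, against 4.39% of all genes. None was called higher, against 5.22% of all genes, and in either direction 9.6% of all genes were called. At an unadjusted p under 0.05, limma gave 5 of the 10 lower and 0 higher in visceral mesothelium. The share of all genes under this unadjusted threshold was not counted, so these counts, and the unadjusted counts of lists below, have no background beside them. Of the 10 genes, 6 had both visceral arrays below both parietal arrays, against 27.4% of all genes. The median log2 difference of the 10 was -0.59, beside 0.0015 over all genes. As the genes were chosen with results known, these shares describe the list and are no evidence about the family.

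**Figure D1:**
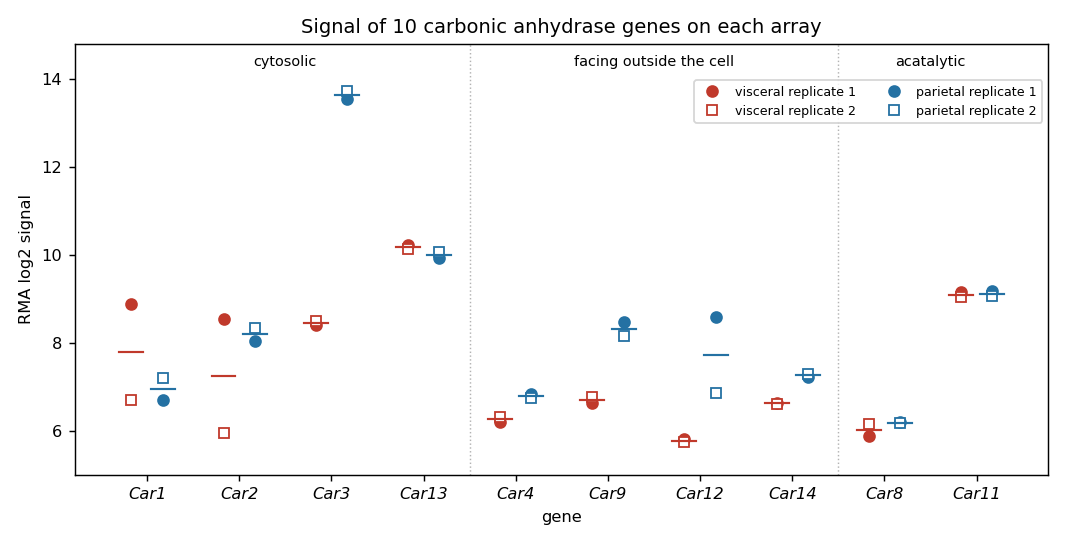
RMA log2 signal (y axis) of the 10 carbonic anhydrase genes (x axis, by role) on each array, with visceral mesothelium in red left of parietal mesothelium in blue, replicate 1 filled and replicate 2 open, and short lines at the means. Car3 lies at 8.40 and 8.50 in visceral and 13.54 and 13.73 in parietal mesothelium, and the visceral arrays of Car1 and Car2 stand far apart. Heights of different genes are not comparable.

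Before the single genes, a difference between the arrays of each tissue has to be stated. Xist, the RNA that coats the inactive X chromosome of female cells, had a log2 signal of 11.46 in visceral replicate 1 and 5.70 in visceral replicate 2, and of 10.91 in parietal replicate 1 and 5.75 in parietal replicate 2. The arrays numbered 1 were thus high and those numbered 2 low in both tissues. The Y-linked gene Eif2s3y lay at 9.52 and 9.52 in the visceral and 9.22 and 9.65 in the parietal arrays, and Kdm5d and Uty between 8.39 and 9.003 on every array. The labels give no sex. These genes were looked at after their values were seen. Of 20 markers of mesothelium, 3 were called higher in visceral mesothelium, against 5.22% of all genes, and 10 lower, against 4.39%. The median log2 difference of these markers was -0.69. The 3 called higher, Podxl (1.42), Wt1 (0.84) and Tcf21 (0.76), were named after their values were seen. Wt1 was at 12.26 and 12.39 in visceral mesothelium, against 11.54 and 11.42 in parietal mesothelium. The lowest adjusted p on the list belonged to Msln (log2 difference -2.14), Krt7 (-1.78), Ezr (-1.30) and Gpm6a (-1.001), all called lower. The defining marker Upk3b was at 13.59 and 13.65 in visceral mesothelium, against 13.79 and 13.84 in parietal mesothelium, and was not called (-0.20). Msln was at 10.70 and 10.82 in visceral mesothelium, against 12.96 and 12.83 in parietal mesothelium. The marker Calb2 lay between 5.39 and 5.64 on all arrays.

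Among the cytosolic enzymes the data separate Car3 sharply from Car1, Car2 and Car13. Car3, the abundant carbonic anhydrase of slow skeletal muscle fibres, fat cells and liver, has a low hydratase activity. Its log2 signal was 8.40 and 8.50 in visceral mesothelium, against 13.54 and 13.73 in parietal mesothelium. The tissues did not overlap, and the arrays of each differed by less than 0.19. Car3 was 36.3-fold lower in visceral mesothelium (8.45 ± 0.07 against 13.63 ± 0.13, SD, n = 2 each), a log2 difference of -5.18 with a 95% interval of -5.43 to -4.93 (adjusted p = 2.94e-05 from limma). Leaving out each array in turn gave -5.27 to -5.09.

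The genes whose 4-array profiles were closest to that of Car3, each centred on its own mean, were components of muscle. They were the myosin heavy chain Myh1 at a Euclidean distance of 0.31, skeletal actin Acta1 (0.31), the fast troponin Tnnt3 (0.35), the Z-disc protein Myot (0.40) and the calcium store protein Casq1 (0.40), out of 19938 genes and over 4 arrays. Acta1, for example, had 7.83 and 7.81 in visceral mesothelium, against 13.22 and 13.38 in parietal mesothelium. Myosin heavy chains are closely similar in sequence, and probes of Myh1 may also bind related chains. All 12 genes of fast fibres were called lower in visceral mesothelium, against 4.39% of all genes, with a median log2 difference of -5.04. Their mean signals were 6.90 and 6.91 on the visceral arrays and 11.85 and 12.21 on the parietal arrays. Myh1, Tnnt3 and Casq1, named above as near profiles, are also on this list, so list and near profiles are not separate observations. The lowest adjusted p belonged to Myl1 (log2 difference -7.28), Casq1 (-5.55), Atp2a1 (-6.07) and Myh1 (-4.89). Of 10 genes of slow fibres, 8 were called lower, against 4.39% of all genes, and none higher, against 5.22%. Their median was -1.58, with mean signals of 7.73 and 7.81 on the visceral and 9.19 and 9.48 on the parietal arrays. Myoz2, a Z-disc protein, differed by -3.60, the myosin light chain Myl2 by -2.41, the slow myosin heavy chain Myh7 by -2.32 and the slow troponin Tnni1 by -1.57. Tpm3 (0.03) and the calcium pump Atp2a2 (0.22) were not called.

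Car3 is also known from fat cells. The 23 adipocyte markers had a median log2 difference of -0.37. None was called higher in visceral mesothelium, against 5.22% of all genes, and 5 were called lower, against 4.39%. They were the glycerol channel Aqp7 (-1.07), the lipase Lpl (-0.85), the glucose transporter Slc2a4 (-1.57), the lipid droplet protein Plin4 (-1.33) and Dgat2 (-0.65), an enzyme of triglyceride synthesis. Slc2a4 and Lpl are also made by skeletal muscle. The defining marker Adipoq, adiponectin, was at 5.99 and 5.96 in visceral mesothelium, against 7.50 and 5.96 in parietal mesothelium. Only parietal replicate 1 was high. Parietal replicate 2 was the higher parietal array for Car3, for 11 of the 12 fast and 8 of the 10 slow fibre genes and for 10 of the 23 adipocyte markers, against 9980 of all 19938 genes. In bulk RNA, more cells of a type and more RNA per cell cannot be told apart, and the part of muscle and fat RNA in the level of Car3 was not tested.

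**Figure D2:**
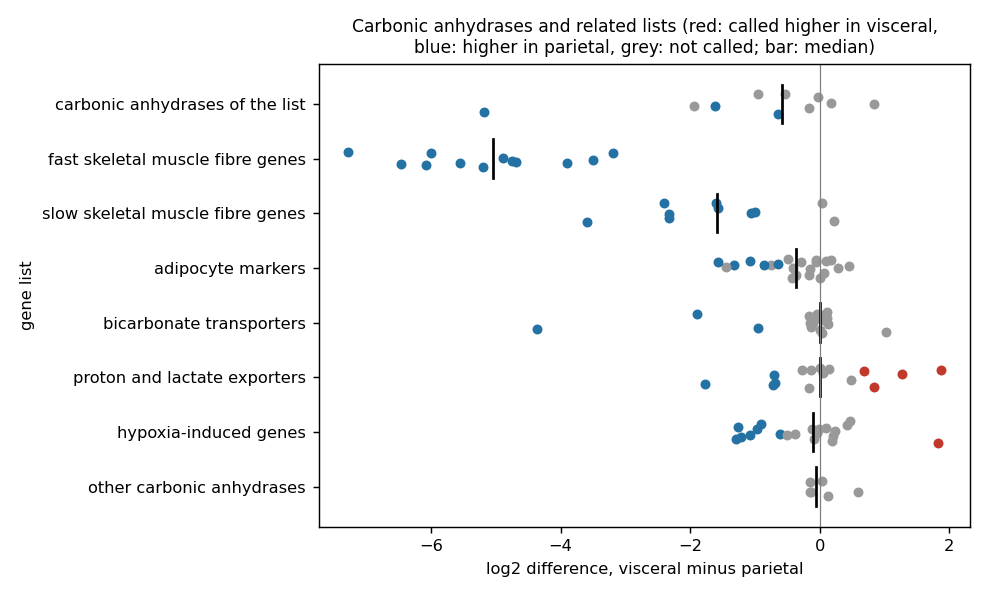
Log2 difference, visceral minus parietal (x axis), of the 10 carbonic anhydrases and of the genes of 7 further lists (y axis); points are single genes, in red or blue if called higher in visceral or parietal mesothelium and otherwise in grey, with a black bar at the median. The fast fibre genes have a median of -5.04, near the -5.18 of Car3, whereas the median of the 10 carbonic anhydrases is -0.59.

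Car1 and Car2 differed more between the visceral arrays than between the tissues. Car1 is known from red blood cells and colon epithelium. Its signal was 8.87 in visceral replicate 1 and 6.70 in visceral replicate 2, against 6.70 and 7.20 in parietal mesothelium. Only visceral replicate 1 stood high, 4.51-fold above its partner. Car2, the fast and widely expressed enzyme of red cells, osteoclasts and acid- or bicarbonate-secreting epithelia, lay at 8.55 in visceral replicate 1 and 5.94 in visceral replicate 2, against 8.05 and 8.33 in parietal mesothelium. Here visceral replicate 2 was the low array, 6.12-fold below replicate 1. Of all 19938 genes, only Xist, an immunoglobulin kappa segment and Car2 itself had a gap between the visceral arrays as large as that of Car2, and with Car1 itself 4 genes had one as large as that of Car1.

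Neither gene passed the test between tissues. Car1 had a log2 difference of 0.84 (95% interval -0.82 to 2.49, adjusted p = 0.494 from limma) and Car2 one of -0.95 (-2.89 to 1.004, adjusted p = 0.514). The intervals are wide, and a change of more than 4-fold in either gene lies inside its own interval. Each gene was decided by 1 visceral array. Without visceral replicate 1, Car1 had a difference of -0.25 (adjusted p = 0.578) and Car2 was called lower at -2.25 (adjusted p = 0.00301 from limma). Without visceral replicate 2, Car1 was called higher in visceral mesothelium at 1.92 (adjusted p = 0.0124 from limma) and Car2 had a difference of 0.36 (adjusted p = 0.240). In these fits the remaining visceral array is assumed to vary as the parietal pair does.

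Genes of red blood cells shared the split of the visceral arrays. The nearest profiles to Car1, a comparison added after its values were seen, were the anion exchanger Slc4a1 (distance 0.50) and the ammonium channel Rhag (0.61), both of the red cell membrane, the pancreatic protease Ctrb1 (0.63), the protease Ctse (0.76) and the red cell antigen Rhd (0.76). Slc4a1, band 3, works beside carbonic anhydrase in the red cell by trading bicarbonate for chloride. It was at 9.29 and 7.28 in visceral mesothelium, against 7.32 and 7.19 in parietal mesothelium. Rhag was at 6.49 and 5.07 in visceral mesothelium, against 4.86 and 4.93 in parietal mesothelium. All 8 measured erythroid markers were higher in visceral replicate 1 than in visceral replicate 2, against 48.9% of all genes, with a median gap of 0.98. Their mean signal was 7.42 and 6.54 on the visceral arrays, against 6.55 and 6.58 on the parietal arrays. This height of visceral replicate 1 was not shared by the whole list. Sptb was at 8.53 and 8.36 in visceral mesothelium, against 8.28 and 8.71 in parietal mesothelium, and Tspo2 at 6.88 and 6.74 against 6.82 and 6.90, so that parietal replicate 2 was the highest array for both. Klf1, a red cell transcription factor, was nearly level between visceral replicate 1 (6.56) and parietal replicate 2 (6.55). Alas2, the haem synthesis enzyme of red cells, was at 7.67 and 6.62 in visceral and 6.67 and 6.42 in parietal mesothelium, and Kel at 6.80 and 5.61 against 5.72 and 5.57. None of the 8 was called between tissues or had an unadjusted p under 0.05 in limma. The haemoglobin genes on the list have no row with 1 symbol in the annotation used. Ctrb1, which is not a red cell gene, was at 9.45 and 7.81 in visceral mesothelium, against 7.20 and 7.43 in parietal mesothelium.

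The profile of Car2 had no such close partner. Its nearest genes were Cycs at 1.28 and Slc25a25 at 1.31, so the low value of visceral replicate 2 was shared less well with other genes than the high value of replicate 1 for Car1. Car2 also marks osteoclasts, a cell type of the macrophage lineage. Of 19 genes of macrophages and osteoclasts, 15 were called higher in visceral mesothelium, against 5.22% of all genes. They were led by Mrc1 (2.69), Fcer1g (2.87), C1qc (2.94) and Tyrobp (2.39). The osteoclast enzymes Acp5 (-1.45) and Ctsk (-1.86), singled out after their values were seen, were called lower. The mean signal of the list was 10.02 and 10.07 on the visceral and 8.61 and 8.69 on the parietal arrays, so that the list did not follow the split of Car2. The part of any of these cells in the signals of Car1 and Car2 was not tested.

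**Figure D3:**
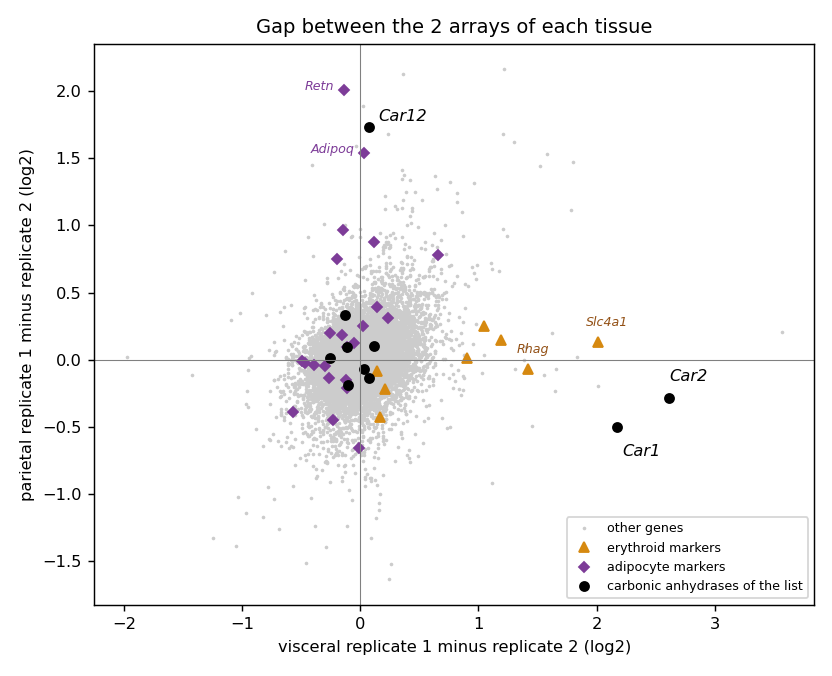
Gap between the arrays of each tissue as replicate 1 minus replicate 2 in log2 units, in visceral (x axis) and parietal mesothelium (y axis), for the 10 carbonic anhydrases (black), erythroid markers (orange triangles), adipocyte markers (purple diamonds) and all other genes (grey, Xist left out). Car1 lies far to the right at 2.17, in the direction of Slc4a1 and Rhag. Car2 also lies to the right at 2.61, but its gap comes from a low visceral replicate 2. Car12 lies high at 1.73, beside Retn and Adipoq, whereas 10 of the 23 adipocyte markers lie below 0 on the y axis.

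Car13, a cytosolic enzyme of many tissues, did not differ beyond the error of the fit. It had 10.22 and 10.14 in visceral mesothelium, against 9.93 and 10.07 in parietal mesothelium. The visceral arrays were the higher ones without overlap, but the log2 difference was 0.17 with a 95% interval of -0.05 to 0.40 (adjusted p = 0.297 from limma), which limits any change to less than 1.5-fold. Car13, Car1, Car3 and Car2 follow one another in this order on mouse chromosome 3, with no other protein-coding gene between them in the RefSeq annotation of GRCm38.p6. Of these 4 neighbours Car3 was the one called, and the difference of 36.3-fold at Car3 stood between values of 1.79-fold at Car1 and 1.93-fold at Car2, in opposite directions and neither called.

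The 4 members that face the outside of the cell, Car4, Car9, Car12 and Car14, were all lower on both visceral arrays than on either parietal array, against 27.4% of all genes, and 2 of them were called lower, against 4.39% of all genes. The 4 are among the genes chosen with results known, so these counts are a description. The median log2 difference of the 4 was -1.13. Car9, a transmembrane enzyme that is a known target of hypoxia-inducible factor and that acidifies the cell surface, was at 6.63 and 6.76 in visceral mesothelium, against 8.48 and 8.15 in parietal mesothelium. It was 3.07-fold lower in visceral mesothelium (6.70 ± 0.09 against 8.32 ± 0.23, SD, n = 2 each), a log2 difference of -1.62 with an interval of -1.95 to -1.29 (adjusted p = 0.00116 from limma). Car14, a transmembrane enzyme known from kidney, retina, muscle and heart, was at 6.64 and 6.61 in visceral mesothelium, against 7.23 and 7.30 in parietal mesothelium. Its difference was small but its arrays lay close together. Car14 was 1.56-fold lower in visceral mesothelium, a log2 difference of -0.65 (interval -0.85 to -0.44, adjusted p = 0.00552 from limma), just past the fold of 1.5, and it is not called at a fold of at least 2.

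Car4, held at the surface by a lipid anchor and known from capillary endothelium, muscle and kidney, fell just short. It was at 6.20 and 6.32 in visceral mesothelium, against 6.84 and 6.74 in parietal mesothelium. Its log2 difference of -0.53 (interval -0.75 to -0.30) had an adjusted p of 0.0156 from limma, but a fold of 1.44, so that it was not called by the rule with a fold. Markers of capillary endothelium did not move together. Of 16, 1 was called higher in visceral mesothelium, the fatty acid receptor Cd36 (0.81), against 5.22% of all genes. The 2 called lower, against 4.39% of all genes, were the junction proteins Esam (-0.69) and Cdh5 (-0.60). The median was 0.03. Kdr, a receptor for vascular growth factor, had -0.50 and was not called.

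Car12, a transmembrane enzyme of secretory epithelia and another target of hypoxia-inducible factor, had the second largest difference in size among the 10 but did not pass the test. It was at 5.82 and 5.74 in visceral mesothelium, against 8.58 and 6.85 in parietal mesothelium. The tissues did not overlap, yet the parietal arrays differed 3.32-fold from each other, a gap that 6 of 19938 genes, Car12 included, reached. The log2 difference was -1.94 with an interval of -3.23 to -0.65 (adjusted p = 0.0669 from limma, not called). It was -1.07 without parietal replicate 1 (adjusted p = 0.00161 from limma) and -2.80 without parietal replicate 2 (adjusted p = 1.39e-05), and in these fits the single parietal array is assumed to vary as the visceral pair does. Parietal replicate 1, the high array of Car12, was also the high array of the fat cell hormones Adipoq (7.50 against 5.96 in parietal replicate 2) and Retn (9.46 against 7.46). Among the 23 adipocyte markers, 13 were higher in parietal replicate 1, against 49.8% of all genes, a share near that of all genes, with a median gap of 0.13. The part of fat cells in the level of Car12 was not tested.

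**Figure D4:**
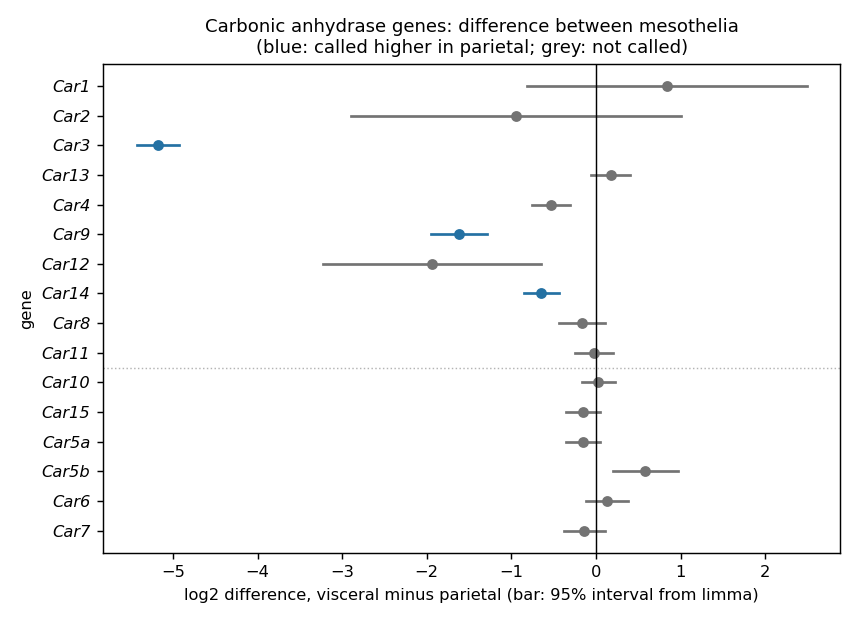
Log2 difference, visceral minus parietal (x axis), of the 10 carbonic anhydrases (upper rows, by role) and of the 6 other family genes (lower rows); points are limma estimates and bars their 95% intervals, blue for genes called lower in visceral mesothelium and grey for the others. Car3 at -5.18 stands alone, the intervals of Car9, Car14, Car4 and Car12 lie below 0, and those of Car1 and Car2 are the widest.

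Promoter sequence is given for Car9 and Car14, the called members for which the RefSeq-derived table holds one, to show whether the hypoxia response element known for Car9 stands near either start. Of the 10 genes, 5 matched that table (Car4, Car9, Car11, Car12 and Car14). The windows are the 250 bases before the annotated start in GRCm38.p6, at chr4:43506776-43507025 on the plus strand for Car9 and at chr3:95904686-95904935 on the minus strand for Car14. Capitals mark the core of the hypoxia response element, ACGTG, which reads CACGT on the printed strand.
Car9: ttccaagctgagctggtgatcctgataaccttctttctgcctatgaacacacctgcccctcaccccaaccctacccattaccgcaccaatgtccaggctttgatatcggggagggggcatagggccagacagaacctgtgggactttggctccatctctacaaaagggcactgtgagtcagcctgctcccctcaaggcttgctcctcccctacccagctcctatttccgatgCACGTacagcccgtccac
Car14: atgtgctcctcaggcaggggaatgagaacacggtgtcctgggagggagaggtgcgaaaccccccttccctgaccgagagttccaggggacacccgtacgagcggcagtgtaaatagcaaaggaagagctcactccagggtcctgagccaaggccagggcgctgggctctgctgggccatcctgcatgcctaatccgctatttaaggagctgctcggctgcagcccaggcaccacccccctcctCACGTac
The core stood at bases 18 to 14 before the start in Car9 and at bases 7 to 3 before the start in Car14. Searched on both strands, ACGTG was found in 16.6% of all 32851 windows of the same length. The windows of Car4, Car11 and Car12 held no ACGTG. The variant GCGTG was found in a window of Car11 and in 28.2% of all windows. These matches describe letters and say nothing of binding.

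Of the genes that hypoxia is known to raise, most calls went the way of Car9, but most of the list was not called. Of 20, 7 were called lower in visceral mesothelium, against 4.39% of all genes, and 1 higher, against 5.22%. The other 12 were not called, and the median log2 difference of the list was -0.10. The lower ones included Pdk1 (-1.29), which restrains pyruvate oxidation, Ndrg1 (-1.22) and the glycolytic enzyme Pgk1 (-1.26). Egln3, a prolyl hydroxylase that marks hypoxia-inducible factor for degradation, went the other way, with 10.43 and 10.45 in visceral mesothelium, against 8.62 and 8.61 in parietal mesothelium (log2 difference 1.82, adjusted p = 0.000156 from limma). Vegfa (0.20), Slc2a1 (0.10) and Ankrd37 (-0.01), defining targets of the same factor, were not called. Of the genes called lower, Ldha, Pgk1 and Hk2 are glycolytic enzymes that skeletal muscle also makes in quantity. Pdk1, Ndrg1, Egln1 (-0.61) and P4ha2 (-0.91), also called lower, are not glycolytic enzymes, and their level in skeletal muscle was not examined. The part of muscle RNA or of hypoxia in these levels was not tested.

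Bicarbonate, the product of the reaction, is carried by transporters of the Slc4 and Slc26 families. Of 19 measured, 3 were called lower in visceral mesothelium, against 4.39% of all genes, and none higher, against 5.22%. The other 16 were not called, and the median was 0.004. Slc26a3, a chloride and bicarbonate exchanger best known from colon epithelium, was at 5.64 and 5.92 in visceral mesothelium, against 10.004 and 10.28 in parietal mesothelium. It was 20.6-fold lower in visceral mesothelium (log2 difference -4.36, adjusted p = 6.99e-05 from limma). Slc4a4, the electrogenic sodium bicarbonate cotransporter, was at 10.13 and 10.19 in visceral mesothelium, against 12.02 and 12.08 in parietal mesothelium, a difference of -1.89 (adjusted p = 0.000156). Slc4a8, a sodium-driven chloride and bicarbonate exchanger, had 6.70 and 6.77 in visceral and 7.77 and 7.59 in parietal mesothelium (-0.94, adjusted p = 0.00265 from limma). The tissues did not overlap for any of these 3 genes. Slc4a1, described above for its high signal on visceral replicate 1, is also on this list and was not called, with a wide interval (log2 difference 1.03, -0.47 to 2.53). Slc26a9, the next by adjusted p, had -0.15 and was not called.

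A list of proton and lactate exporters split evenly in its calls, but it also holds genes that are not exporters. These include the chaperone Bsg and the exchanger regulators Slc9a3r1 (-0.68, called lower) and Slc9a3r2 (0.69, called higher), so the even split is not one of exporters alone. Of 15 measured, 4 were called higher in visceral mesothelium, against 5.22% of all genes, and 4 lower, against 4.39%. The other 7 were not called, and the median log2 difference of the list was 0.01. The lactate and proton carrier Slc16a1 was at 11.24 and 11.04 in visceral mesothelium, against 12.95 and 12.88 in parietal mesothelium (-1.78, adjusted p = 0.000367 from limma), and its chaperone Bsg differed by -0.73. Higher in visceral mesothelium were the sodium and proton exchangers of internal membranes Slc9a7 (1.87) and Slc9a9 (1.28). Slc16a3, the lactate carrier of glycolytic muscle, had -0.27 and was not called (adjusted p = 0.364).

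Neither of the carbonic anhydrase-related members was called. Car8, which has lost catalysis and is known to bind the IP3 receptor Itpr1, was at 5.89 and 6.15 in visceral mesothelium, against 6.19 and 6.18 in parietal mesothelium. The visceral arrays were marginally lower without overlap, and the log2 difference was -0.17 (interval -0.44 to 0.11, adjusted p = 0.408 from limma). Itpr1 has no row with 1 symbol here. The related receptors Itpr2 (-0.04) and Itpr3 (-0.31) were not called, and 1 of these 2 had an unadjusted p under 0.05 in limma. Car11, a related protein that is secreted and also catalytically silent, was at 9.15 and 9.04 in visceral mesothelium, against 9.17 and 9.07 in parietal mesothelium. Its arrays overlapped, with a log2 difference of -0.02 and an interval of -0.25 to 0.20 (adjusted p = 0.911 from limma), so that a change of 1.5-fold lies outside the interval.

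The 6 family genes outside the list of 10 were not called either, and 1 of them had an unadjusted p under 0.05 in limma. Car5b, one of the mitochondrial enzymes, was that gene, with 9.09 and 9.33 in visceral mesothelium, against 8.81 and 8.44 in parietal mesothelium. Both visceral arrays were the higher ones (log2 difference 0.58, interval 0.20 to 0.97, adjusted p = 0.0629 from limma). Its mitochondrial counterpart Car5a had a difference of -0.15, the salivary enzyme Car6 of 0.13, the cytosolic brain enzyme Car7 of -0.14, the acatalytic Car10 of 0.03 and Car15 of -0.15, with adjusted p from 0.299 to 0.867.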

How the data were processed

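Expression profiles of visceral and parietal mesothelium (2 arrays each) were analysed. The authors made the deposited log2 values with RMA, which corrects background, normalizes by quantiles and summarizes probe sets; the submitters' processing notes name Partek 6.6. The array library version is not given in the sources used here. Of 35556 rows, 21789 have 1 gene symbol in the platform annotation, 1621 several and 12146 none, and 21698 were found by gene identifier in a RefSeq table of GRCm38.p6. No row with several symbols holds a carbonic anhydrase of the list. For each of 19938 genes the row with the highest mean entered a linear model of tissue over the 4 arrays without a block (limma 3.58.1, R 4.3.3), with Benjamini-Hochberg adjustment over all genes. The fit was tested on simulated data. Arrays of a tissue correlated at 0.992 and 0.993 over all rows, against 0.965 to 0.969 between tissues, and the number of arrays limits the precision. No detection call is used, so a dim signal is not called absent.

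The members and gene lists were chosen with earlier results of these data known. Genes named are the 16 carbonic anhydrases, the 4 of each list with the lowest adjusted p and its defining genes that were not called, and the 5 genes nearest in profile to Car3. Which genes define a list was judged with the values known. Others are said to be chosen after their values were seen, as were the profiles near Car1 and Car2 and the genes of sex. So were Wt1, Podxl, Tcf21, Retn, Dgat2, Ldha, Hk2, Egln1, P4ha2, Slc9a3r1, Slc9a3r2, Ctrb1, Sptb, Tspo2 and Klf1. List genes without a row of 1 symbol were not used. Alternatives were the methods' t-test (named there as a one-way ANOVA, which for a pair of groups is the same test, and rebuilt here on 1 row per gene), other thresholds, variance priors, normalizations, filters on dim rows, other row choices, the replicate number as a block, and removal of each array in turn. Scan batches were not analysed here.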

Additional observations from a re-analysis of the deposited data

How the results depend on the processing

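Car3, Car9 and Car14 kept a negative difference under each alternative that fitted them, and they stayed called on leaving out each array in turn. The methods' t-test as rebuilt here, after adjustment over all genes, called 0 of 19938 genes and 0 of the 10 carbonic anhydrases in parietal mesothelium (lowest of the 3 adjusted p 0.104, for Car3). Without adjustment it gave 1582 genes and the same count of 3 as limma. Genes above the median signal gave 1 carbonic anhydrase lower in visceral mesothelium, as Car9 and Car14 lie under that median and were left out of the fit. A fold of at least 2 gave 978 genes, and a test against a fold of 1.5 gave 724, and Car14 was not called in either. With no fold threshold Car4 was also called. Leaving out each array gave 0 to 1 carbonic anhydrase higher in visceral mesothelium (Car1, without visceral replicate 2), 4 lower each time, and 1696 to 2095 genes in all against 1915. The signs of 3 genes turned: Car1 (-0.25 to 1.92), Car2 (-2.25 to 0.36) and Car11 (-0.080 to 0.033). With the replicate number as a block, 2008 genes were called. Car12 was then called lower in visceral mesothelium (log2 difference -1.94, adjusted p = 0.0331 from limma), and the block changed no other call of the 10. Across genes, replicate 1 minus replicate 2 correlated between the tissues with r = 0.356. Xist was high on the arrays numbered 1 and low on those numbered 2 in both tissues. The labels give no shared animal or batch for a number, so the main fit takes no pairing and the number serves only as this alternative block.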
